A study of Mus musculus with 32 samples.

Results

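The genes described here are 5 major urinary protein genes, Mup1, Mup3, Mup16, Mup20 and Mup21, of 32 genes and pseudogenes with a Mup symbol among the 20076 genes of the deposited count table. They were chosen by symbol, as members of the family, with earlier results of these mice known, and measured values entered the choice through the 2 mice left out for their levels. The rule has no threshold, so there are no members just inside or outside it. Of the 32 Mup genes, 19 are annotated as coding and 13 as pseudogenes. The 5 genes held 48.4% of the reads counted on Mup genes in the 30 mice used, and all 5 passed the filter on low counts, together with 9 other Mup genes.

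Major urinary proteins are small lipocalins, barrel-shaped proteins that hold volatile molecules in a pocket. Mouse liver secretes them into the blood, and they pass into the urine, where they carry and slowly release scents that mark sex, status and individual. In mouse liver their transcription is stronger in males than in females and is known to respond to the pulsatile growth hormone of males, acting through the growth hormone receptor and STAT5B, and to androgens, glucocorticoids and thyroid hormone.

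Liver RNA was sequenced from male mice on a C57BL/6J strain background, either wild type (WT) or carrying the Acadm-knockout in the whole body (KO, deficient in medium-chain acyl-CoA dehydrogenase, MCAD). Each genotype received a low-fat (LF) or high-fat (HF) diet for 6 weeks and was killed fed or after 16 h of fasting, which gave 8 groups of 4 mice. The labels give ages of 7.5 to 16, without a unit. The study gives the WT mice as littermates, and whether mice of a group shared a cage or litter is not given, so p-values measure the spread between these mice. The reads came from the 3′ ends of polyadenylated transcripts, and 2031053 to 4292200 reads per mouse were counted on genes. Each lane of the sequencer, 7 or 8, held mice of both genotypes, diets and feeding states, but all 4 WT LF fed mice were in lane 8.

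The labels were checked against the data before the groups were compared, and 2 mice stood apart. Acadm, the targeted gene, lay between 191 and 741 CPM, the reads of a gene scaled to a fixed total per mouse, in the 15 WT mice used and between 8.88 and 32.9 CPM in the 15 KO mice used. The sum of 10 heart markers was 38671 CPM in KO HF fasted replicate 4 and never above 242 CPM in the 30 mice used, and that of 9 hepatocyte markers was 852 CPM in this mouse and never below 44622 CPM in the others. Its 5 Mup genes summed to 403 counts. WT LF fed replicate 2 had a hepatocyte marker sum within the range of the other mice but Mup levels far below theirs, as described further down. Its sum of 9 liver macrophage markers, 853 CPM, was above the 259 to 804 CPM of the 30 mice, and the part of this in its Mup levels was not tested. Both mice were left out of every comparison unless stated, so that the WT LF fed and KO HF fasted groups held 3 mice each and the other groups 4.

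All 5 genes lie on the reverse strand of chromosome 4 (GRCm38), within a stretch of 48 Mup genes and pseudogenes between 59956804 and 62150863. Mup1 lies at chr4:60498012-60501960 and Mup16 at chr4:61515592-61519531, among many close copies. Mup20 (chr4:62050234-62054158), Mup3 (chr4:62083476-62087342) and Mup21 (chr4:62147932-62150863) follow one another towards one end. A stretch of 50 coding bases from the annotated transcripts, which spans 2 exons, is shown because it separates the genes that can be counted apart from those that can not. Capitals mark the 21 positions at which the 5 genes are not all the same.
Mup1: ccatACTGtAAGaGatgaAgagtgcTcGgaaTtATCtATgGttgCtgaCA
Mup16: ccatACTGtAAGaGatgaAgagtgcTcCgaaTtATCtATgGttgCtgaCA
Mup20: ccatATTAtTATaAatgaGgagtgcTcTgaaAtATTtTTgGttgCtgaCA
Mup21: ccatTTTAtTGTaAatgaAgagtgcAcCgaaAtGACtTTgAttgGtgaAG
Mup3: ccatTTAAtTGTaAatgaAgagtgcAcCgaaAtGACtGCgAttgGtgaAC
With the intron between, the stretch lies at chr4:60500472-60501290 in Mup1, chr4:61518044-61518861 in Mup16, chr4:62052669-62053488 in Mup20, chr4:62149387-62150203 in Mup21 and chr4:62085992-62086808 in Mup3. In this stretch Mup16 differed from Mup1 at 1 position, Mup20 at 10, Mup21 at 17 and Mup3 at 19. Over the whole coding sequence Mup1 was 99.1% identical to Mup16, 90.6% to Mup20, 84.0% to Mup21 and 82.4% to Mup3.

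This closeness sets how far a count belongs to its gene. Of the 50-base stretches in the last 300 bases of each transcript, where reads of a 3′ library mostly fall, 93.6% in Mup3, 92.8% in Mup20 and 82.1% in Mup21 were found in no other annotated Mup gene. In Mup16 the share was 12.7%, and in Mup1 it was 0, with all 251 stretches also present in Mup19. By this measure the counts of Mup3, Mup20 and Mup21 can be tied to their genes better than those of Mup1 and Mup16, which are uncertain. The measure uses exact matches to annotated Mup transcripts only, and the origin of reads was not tested. Over the whole transcript the share in Mup20 was 49.9%. Reads that match several genes equally are left out by HTSeq-count, the program that made these counts, so a sum over genes does not recover them. Sums over genes are given beside the single values with that limit.

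Of the 5 genes, RefSeq promoters were at hand for Mup3 and Mup21 only, with no entry for Mup1, Mup16 and Mup20. They are shown because Mup3 and Mup21 were closer to each other in coding sequence (94.7% identical) than either was to Mup20. The 250 bases before the RefSeq start (GRCm38.p6, reverse strand, chr4:62087318-62087567 for Mup3 and chr4:62150842-62151091 for Mup21) were 89.1% identical. Capitals mark TGTTCT, the core of glucocorticoid receptor motifs, and TATAA, both searched on both strands.
Mup3 promoter: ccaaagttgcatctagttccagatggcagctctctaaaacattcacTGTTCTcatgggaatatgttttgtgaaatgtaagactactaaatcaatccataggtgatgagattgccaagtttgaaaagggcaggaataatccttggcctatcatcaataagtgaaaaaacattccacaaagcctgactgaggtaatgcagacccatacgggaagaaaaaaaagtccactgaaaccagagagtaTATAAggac
Mup21 promoter: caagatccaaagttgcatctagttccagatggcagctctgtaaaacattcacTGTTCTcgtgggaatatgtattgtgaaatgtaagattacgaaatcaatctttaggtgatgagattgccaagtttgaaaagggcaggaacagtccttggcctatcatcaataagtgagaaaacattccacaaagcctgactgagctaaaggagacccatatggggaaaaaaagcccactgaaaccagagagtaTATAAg
TGTTCT was found in 2 of the 14 Mup promoters at hand, these 2, and in 16.1% of all 32851 RefSeq promoters. TATAA was found in 11 of the 14 Mup promoters and in 22.8% of all. The STAT5-type motif TTCNNNGAA, which reads the same on both strands, was found in 0 of the 14 within this window and in 7.02% of all promoters. The same motif with 1 more N between TTC and GAA also reads the same on both strands. It was found in 5 of the 14, Mup4, Mup6, Mup7, Mup11 and Mup14, in neither of the 2 shown, and in 5.85% of all promoters. The windows follow the RefSeq starts, which do not line up between entries. Those of Mup7, Mup11 and Mup14 end upstream of where the others hold TATAA. Motif counts among the 14 thus depend in part on where each window lies.

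Reads counted on Mup genes made up 0.654% to 3.26% of all reads counted per mouse, with a median of 1.73%. Reads that match several Mup genes equally are not in these counts. The 5 genes took between 33.8% and 77.8% of the Mup reads of a mouse, and Mup3 alone took 80.0% to 92.9% of the reads of the 5. Per kilobase of annotated transcript, the median level over the 30 mice was 7833 CPM for Mup3, 1125 CPM for Mup20, 136 CPM for Mup21, 122 CPM for Mup16 and 19.5 CPM for Mup1. Since reads of a 3′ library come from transcript ends, a level per length is only a rough scale between genes. The shares and this order also depend on how much of each transcript can be told from its copies. Of the 5 genes this was most for Mup3, Mup20 and Mup21. Outside the 5 genes, most Mup reads fell on the pseudogene Mup-ps22, which took 27.7% of them, and on Mup11 and Mup17. Mup-ps22 is a stretch of 243 bases on chromosome 11, and its closest Mup gene by sequence was Mup20, with 90.1% of its bases identical.

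**Figure D1:**
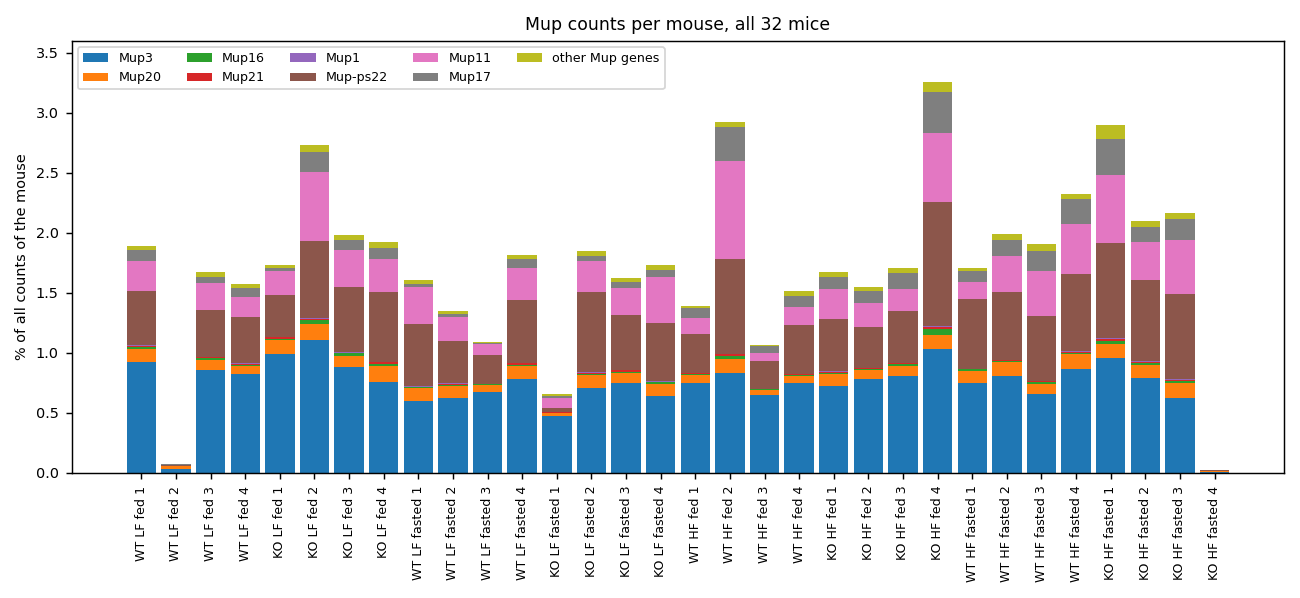
Share of all counted reads of each of the 32 mice that fell on Mup genes, in percent, with colours for the 5 genes, for Mup-ps22, Mup11 and Mup17, and for the other Mup genes. Mup3 is the largest single block in all but a few mice, the total runs from 0.654% to 3.26% in the 30 mice used, and WT LF fed replicate 2 and KO HF fasted replicate 4 have almost none.

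The first question was how level each gene was across the 8 groups. No member passed the test in any of the 18 comparisons made (adjusted p of edgeR's quasi-likelihood test, Benjamini-Hochberg over 11566 genes), neither for the average effects of the 3 factors, nor within single conditions, nor for differences between effects. Over these 90 results of 5 genes the smallest adjusted p was 0.122, and 9 had an unadjusted p below 0.05. DESeq2 called 0 of the 90 as well, with 10 below 0.05 unadjusted. The levels are CPM after scaling of the library sizes by TMM, unless stated otherwise, and the values of a group are given in the order of the replicate numbers.

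Against this count of 0 stands the share of all genes that the same test called. It was 18.9% for fasting, 3.49% for the diets and 0.00865% for the genotypes, where Acadm alone passed. Fasting within a genotype and diet gave 7.54% in WT on LF, 13.8% in KO on LF, 0.424% in WT on HF and 0.527% in KO on HF. The effect of diet gave 0.0778% in fed WT, 1.12% in fasted WT, 0.00865% in fed KO and 1.68% in fasted KO mice. Few genes were thus called for diet in fed mice or on HF for fasting, so that a count of 0 among 5 genes says little there. With only 5 genes it says little in the other comparisons too, up to the share of 18.9% for fasting. Genotype gave 0.00865% in each of the 4 conditions, and the differences between effects gave 2.46% for fasting by diet and 0 for both others.

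At an unadjusted p below 0.05 the share of all genes was 29.4% for fasting, with 0 of the 5 members, 15.8% for diet, again with 0, and 2.90% for genotype, with 3. Within conditions it was 19.3%, 9.19%, 25.4% and 7.53% for fasting in WT LF, WT HF, KO LF and KO HF, with 1 member, Mup3, in KO LF. For diet it was 5.22%, 12.3%, 7.26% and 13.1% in WT fed, WT fasted, KO fed and KO fasted, with 1 member, Mup21, in WT fed. Mup21 was also the member below 0.05 for genotype in both HF states. The shares for genotype were 3.89% in LF fed, 5.91% in LF fasted, 2.73% in HF fed and 2.49% in HF fasted. Fasting by diet had 13.3% and Mup3, fasting by genotype 4.95% and no member, and diet by genotype 3.43% and Mup21.

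A second description, with no test, is whether the ranges of CPM of 2 groups overlap. Over all 15 against 15 mice they did not overlap for 0.294% of genes by feeding, 0.0173% by diet and 0.00865% by genotype, and 0 members were among them. For fed against fasted mice the share was 20.1% in WT LF, 5.93% in WT HF, 13.7% in KO LF and 10.5% in KO HF, and Mup3 in WT LF was the single member. For LF against HF it was 8.33% in fed WT, with Mup3 and Mup21, 7.23% in fasted WT, 5.75% in fed KO and 9.36% in fasted KO, with Mup16. For WT against KO it was 6.68% in LF fed, 2.13% in LF fasted and 2.65% in HF fed, without a member. In HF fasted it was 5.27%, with Mup1, Mup16 and Mup21. The separations of Mup3 and Mup21 listed for WT LF and for fed WT rest on leaving out WT LF fed replicate 2. Scaled to total counts, Mup3 and Mup21 of that mouse were below all 30 mice, so with it these ranges overlap.

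**Figure D2:**
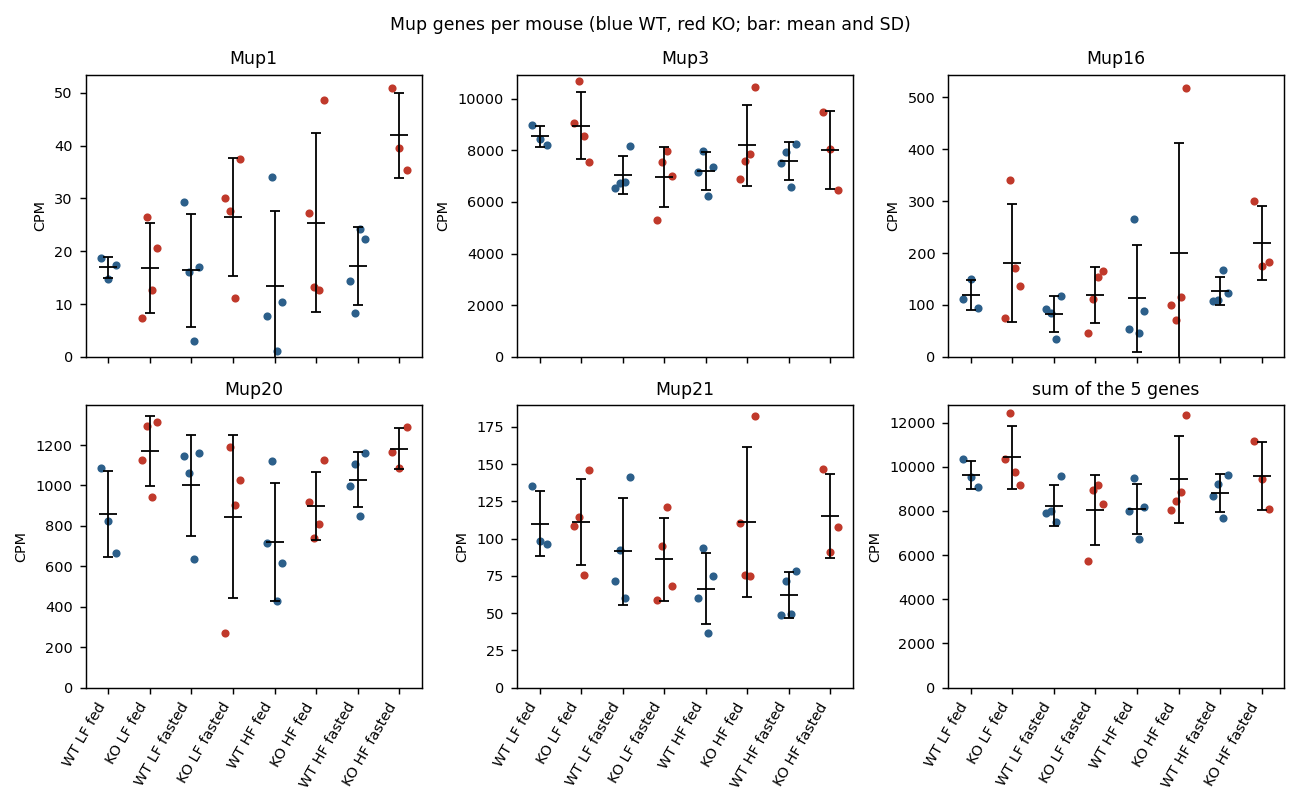
Level of each of the 5 genes and of their sum in each of the 30 mice, in CPM, by group, with WT mice in blue and KO mice in red, and the group mean with its SD as a bar, cut at 0. Groups next to each other in the order of their means overlap for every gene, although other pairs of groups do not, and Mup1 and Mup16 spread over a wider range of folds than Mup3.

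Mup3, which held most reads of the 5 in all mice, was also the steadiest. In LF fed mice it stood at 8977, 8431 and 8204 CPM in WT and at 9049, 10668, 8552 and 7550.3 CPM in KO. After fasting on LF it stood at 6556, 6721, 6778 and 8154 CPM in WT and at 5318, 7549, 7986 and 6997 CPM in KO. All 4 WT LF fasted mice were thus below the 3 WT LF fed mice, although the highest, at 8154 CPM, came close to the lowest fed mouse, at 8204 CPM, and the KO ranges overlapped. HF fed mice had 7172, 7991, 6219 and 7369.9 CPM in WT and 6907, 7568, 7846 and 10465 CPM in KO. HF fasted mice had 7521, 7940.1, 6571 and 8257 CPM in WT and 9494, 8058 and 6474 CPM in KO. On HF the fed and fasted ranges overlapped in both genotypes, and all fed WT mice on HF were below those on LF. Both separations from the WT LF fed mice rest on leaving out replicate 2 of that group for its low Mup levels. That mouse had 325 CPM of Mup3 when scaled to total counts. From the lowest to the highest of the 30 mice Mup3 varied 2.01-fold, and from the lowest group mean (KO LF fasted, 6962 ± 1168 CPM, SD, n = 4) to the highest (KO LF fed, 8955 ± 1301 CPM, SD, n = 4) it varied 1.29-fold.

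For Mup3 the average effect of fasting was -0.15 on the log2 scale (SE 0.08, edgeR adjusted p = 0.22), with a 95% interval of the fold from 0.805 to 1.01. It was furthest from 0 in KO mice on LF, at -0.36 (SE 0.16, edgeR adjusted p = 0.122). In WT mice on LF it was -0.28 (SE 0.17, adjusted p = 0.389 by edgeR), and on HF 0.08 in WT and -0.03 in KO. The fasting effect on HF exceeded that on LF by 0.34 (SE 0.16, edgeR adjusted p = 0.35). Neither difference passed the threshold after adjustment. When reads were scaled to total counts without TMM, which moved the median fasting effect of all genes to -0.09, Mup3 did pass for fasting, with an average of -0.24 (edgeR adjusted p = 0.038), and in KO mice on LF, with -0.54 (adjusted p = 0.0164). Relative to that shifted median its average fall was close to the value with TMM. Diet and genotype left Mup3 at -0.02 (SE 0.08, interval of the fold 0.882 to 1.11) and 0.08 (SE 0.08, interval of the fold 0.944 to 1.18).

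Mup20 encodes darcin, a male scent protein that attracts females. LF fed mice had 1088, 825 and 664 CPM in WT and 1124, 1295, 945 and 1316 CPM in KO. LF fasted mice had 1144, 1062, 634 and 1160.4 CPM in WT and 270.0, 1188, 901 and 1026 CPM in KO. The lowest value belongs to KO LF fasted replicate 1, which was also the lowest of the 30 mice for Mup3 and for the sums of the 5 and of all Mup genes. On HF, fed WT mice had 714, 1120.0, 430.2 and 615 CPM and fed KO mice 919, 739, 809 and 1126 CPM. Fasted mice on HF had 999.8, 1104, 851 and 1159 CPM in WT and 1166, 1089 and 1290.5 CPM in KO. Every pair of groups next to each other in level overlapped, and the group means spanned 1.64-fold, from WT HF fed to KO HF fasted. The average effect of fasting was 0.17, that of diet -0.03 and that of genotype 0.18, each with an SE of 0.16 and edgeR adjusted p of 0.539, 0.964 and 1.

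Mup21, the closest of the other members to Mup3 by sequence, had the smallest unadjusted p among the results of the 5 genes. In WT mice it stood at 135, 98.6 and 96.1 CPM on LF fed and at 60.3, 93.7, 36.9 and 75.0 CPM on HF fed. WT fasted mice had 71.5, 92.7, 59.9 and 141 CPM on LF and 48.4, 71.8, 49.3 and 78.2 CPM on HF. In fed WT mice the HF values were therefore all below the LF values, and in fasted WT mice the ranges overlapped. The separation in fed WT mice rests on leaving out WT LF fed replicate 2, which had 4.91 CPM when scaled to total counts. KO mice had 109, 115, 75.5 and 146 CPM on LF fed and 111, 75.5, 75.1 and 182 CPM on HF fed. Fasted KO mice had 59.1, 95.03, 121 and 68.4 CPM on LF and 147, 91.2 and 107 CPM on HF. On HF after fasting all 3 KO mice were above all 4 WT mice, and on LF the genotypes overlapped in both feeding states.

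As log2 fold changes, the KO to WT effect on Mup21 was 0.90 on HF fasted (SE 0.34, edgeR adjusted p = 0.999) and 0.74 on HF fed (SE 0.32, edgeR adjusted p = 1), and on LF it was 0.02 fed and -0.10 fasted. The diet effect in KO mice exceeded that in WT mice by 0.86 (SE 0.33, edgeR adjusted p = 1). In fed WT mice the diet effect was -0.73 (SE 0.34, edgeR adjusted p = 0.913). None of these passed after adjustment, and the intervals of the fold were wide, from 1.15 to 3.02 for KO against WT on HF fasted. Averaged over all conditions the genotype effect on Mup21 was 0.39 (SE 0.16, edgeR adjusted p = 1), that of fasting -0.17 and that of diet -0.22.

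Mup16 and Mup1, whose reads can for the most part not be told from those of near-identical copies, varied most. For Mup16, LF fed mice had 112, 149.9 and 93.2 CPM in WT and 74.0, 341, 171 and 137 CPM in KO. LF fasted mice had 92.4, 84.6, 34.5 and 117 CPM in WT and 46.8, 112, 155 and 165 CPM in KO. In both feeding states on LF the genotypes overlapped. On HF, fed mice had 52.9, 265, 46.2 and 88.2 CPM in WT and 99.9, 70.7, 114 and 518 CPM in KO. Fasted mice on HF had 108, 109, 167 and 123 CPM in WT and 301, 175 and 183 CPM in KO. The HF fasted KO mice were all above the HF fasted WT mice, and above all KO mice that were fasted on LF. A single mouse, KO HF fed replicate 4, had 518 CPM where the other 3 of its group had at most 114 CPM.

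Mup1 had few reads, between 4 and 158 per mouse. Fed mice on LF had 18.7, 14.8 and 17.4 CPM in WT and 7.37, 26.6, 12.7 and 20.7 CPM in KO, and fasted mice on LF had 29.4, 16.0, 3.02 and 17.0 CPM in WT and 30.01, 27.6, 11.1 and 37.5 CPM in KO. On HF, fed mice had 7.78, 34.0, 1.19 and 10.3 CPM in WT and 27.2, 13.2, 12.6 and 48.7 CPM in KO. Fasted on HF, WT mice had 14.3, 8.28, 24.2 and 22.3 CPM and KO mice 50.9, 39.5 and 35.5 CPM. As for Mup16 and Mup21, the HF fasted groups of the 2 genotypes did not overlap, and elsewhere they did. At the median of these counts, counting error alone gives a relative error of 0.129 for Mup1 and 0.00648 for Mup3. The average effect of fasting was 0.44 (SE 0.33, edgeR adjusted p = 0.414) for Mup1 and -0.20 (SE 0.32, edgeR adjusted p = 0.733) for Mup16. That of diet was 0.24 (SE 0.33, edgeR adjusted p = 0.809) for Mup1 and 0.40 (SE 0.32, edgeR adjusted p = 0.63) for Mup16. The 95% intervals of the fold for diet were wide, from 0.739 to 1.89 for Mup1 and from 0.835 to 2.08 for Mup16.

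Of the 5 genes, 3 thus had higher levels in every HF fasted KO mouse than in every HF fasted WT mouse, a pattern that 5.27% of all genes showed in one or the other direction in that comparison of 3 with 4 mice. Averaged over all conditions, the genotype effect was 0.72 for Mup1 (SE 0.33) and 0.69 for Mup16 (SE 0.32), both with an edgeR adjusted p of 1. With Mup21, 3 of the 5 genes had an unadjusted p below 0.05 for genotype, against 2.90% of all genes. But Mup1 and Mup16 are near-identical in sequence and vary together from mouse to mouse, and none passed after adjustment. The count of 3 became 1 with 31 mice, 0 with all 32, 2 with age as a term, and 1 within each lane. With at least 10 counts in every mouse it was 2, but Mup1 did not pass that filter and was not tested. All 5 members and all 9 other Mup genes tested had a genotype effect above 0. The median was 0.39 over the 5 members and -0.003 over all genes. By condition the median of the members was 0.74 in HF fed and 0.79 in HF fasted mice, with 5 of 5 above 0, and 0.07 in LF fed and -0.02 in LF fasted mice, with 4 and 2 of 5 above 0. Single lanes were fitted with additive effects of feeding, diet and genotype. The genotype effect was then 0.72 for Mup1, 0.57 for Mup16 and 0.58 for Mup21 in lane 7. In lane 8 it was 0.75, 0.78 and 0.23.

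**Figure D3:**
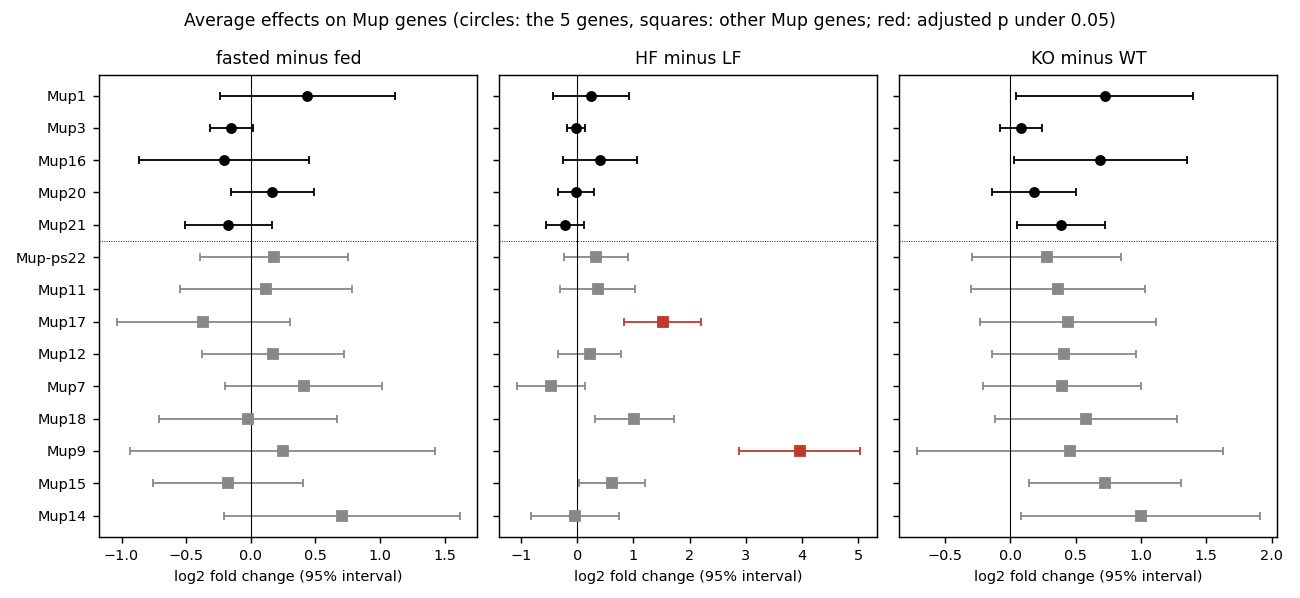
Average effect of fasting, of diet and of genotype on the 5 members (black circles) and on the 9 other Mup genes tested (squares), as log2 fold changes with 95% intervals from the edgeR fit of the 30 mice, in red where the adjusted p was below 0.05. The intervals of the 5 members reach or cross 0 for fasting and diet, all 14 points lie above 0 for genotype, and the red points are Mup17 at 1.52 and Mup9 at 3.96 for diet.

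Because of the near-identical sequences, the counts were also summed, although reads that match several genes equally are missing from the sums too. The 5 genes together reached 10331, 9519.6 and 9074 CPM in WT and 10363, 12444, 9757 and 9170.3 CPM in KO for LF fed mice. LF fasted mice had 7893, 7976, 7509.8 and 9589 CPM in WT and 5724, 8971, 9174 and 8293 CPM in KO. The sum followed Mup3 and had its lowest and highest mouse in the KO LF groups. HF fed mice had 8007, 9504, 6733 and 8159 CPM in WT and 8064, 8467, 8858 and 12339.6 CPM in KO, and HF fasted mice 8692, 9233, 7663 and 9639.8 CPM in WT and 11158, 9452 and 8090.3 CPM in KO. The group means ran from 8041 CPM in KO LF fasted to 10434 CPM in KO LF fed, and no group stood apart from its neighbours in that order. The average log2 ratio of the sum was -0.12 between fasted and fed mice, -0.01 between diets and 0.09 between genotypes. Single mice of a group had an SD of 0.22 on this scale, and the averages were not tested.

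Over all 32 Mup genes the sum ranged from 7361 CPM in KO LF fasted replicate 1 to 32953 CPM in KO HF fed replicate 4. Its group means ran from 15527 CPM in WT LF fasted to 24228 CPM in KO HF fasted. The average log2 ratio was 0.02 with fasting, 0.22 with HF and 0.20 with the knockout, where single mice of a group had an SD of 0.44. The ratio for diet in fasted KO mice was 0.70 and that in fed KO mice -0.06. In bulk liver RNA, fewer cells of a type and less RNA per cell cannot be told apart, and this holds for all of these levels.

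The spread between mice of a group was itself a property that set the genes apart. The biological coefficient of variation, the relative spread beyond counting error that edgeR estimates, was 0.179 for Mup3, 0.297 for Mup20, 0.304 for Mup21, 0.576 for Mup16 and 0.616 for Mup1, where the median over all genes was 0.260. From the lowest to the highest mouse Mup20 varied 4.87-fold, Mup21 4.93-fold, Mup16 15.0-fold and Mup1 42.7-fold. The genes moved together within groups. Over deviations of log2 CPM from the group means in 30 mice, Pearson's r was 0.69 between Mup1 and Mup16, 0.65 between Mup3 and Mup21 and 0.25 between Mup1 and Mup3. Outside the 5 genes, r was 0.91 between Mup20 and Mup-ps22 and 0.88 between Mup16 and Mup11. These points share mice, and most reads of pairs with near-identical sequence cannot be told apart, so that r is given as a description.

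Among 9128 genes outside the family with a mean of at least 5 CPM, the 5 with levels most like the summed level of the members over the 30 mice included Ttc39c (r = 0.76), Il1rap (0.75), C9 (0.75) and Cfhr2 (0.74). The 3 least like it were Rmdn3 (r = -0.73), Tbc1d22a (-0.76) and Srxn1 (-0.83). For 4 of the single genes, the most alike was St7l for Mup1 (0.68), Ttc39c for Mup3 (0.75), Selenbp2 for Mup16 (0.72) and Serpina1e for Mup21 (0.71). In deviations from the group means, Ugt2b5 (0.78) came first and Srxn1 (-0.81) last for the summed level. Cyp7b1 was among the 3 most alike for both Mup1 (0.67) and Mup16 (0.65).

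The mouse left out of the LF fed WT group, replicate 2, had a Mup level unlike that of the other 30 mice. By total-count CPM, which does not depend on the other mice, Mup3 stood at 325 CPM against 4725 to 11039 CPM in the others. Mup20 was the least low, at 221 CPM against 240 to 1340 CPM, which is 22.2% of their median. Mup21 had 4.91 CPM against 38.4 to 180 CPM. Mup16 had 1 count and Mup1 had 0 counts in this mouse, both under a floor of 3 counts, where the other mice had at least 80 and 4 counts. The 5 genes together reached 551 CPM, 6.16% of the median of the other mice, and all Mup genes 705 CPM, 4.07% of the median.

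In the same mouse other genes with a sex bias in liver were also outside the range of the 30 mice. Of 15 male-predominant genes with enough reads, 10 were below all 30 mice, among them Slco1a1, an organic anion transporter, with 3.27 CPM against 176 to 640 CPM, and Elovl3, a fatty acid elongase, with 2.86 CPM against 90.5 to 610 CPM. Genes of each list were used if they reached 1 CPM in the median of the 30 mice or in this mouse. Of 13 female-predominant genes at hand, 6 did so. Of these, 4 were above all 30 mice, among them Cyp2a4, a steroid hydroxylase, with 142 CPM against 0 to 4.64 CPM. But Cyp2a4, A1bg, Hao2 and Cyp2b9, the last within the range, had a median of 0 CPM and entered only through this mouse. The share of 4 in 6 therefore does not measure how far the list was raised. Of the other genes used, Abcd2 was above the range and Fmo2 within it. Of 15 genes of growth hormone signalling, 13 were within the range, including Ghr, Stat5b, Igf1 and Socs2, and 2, Jak2 and Igfbp3, were above it. Of 16 hormone receptors and liver regulators, 10 were within the range, 4 were below it, among them Thrb, Foxo1 and Nr1i3, and 2, Esr1 and Stat3, were above it. The 4 Y-linked genes looked at, Ddx3y, Eif2s3y, Kdm5d and Uty, were within the range of the other mice, as was Xist, with 1 count. These are values of a single mouse, and what set them was not tested.

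**Figure D4:**
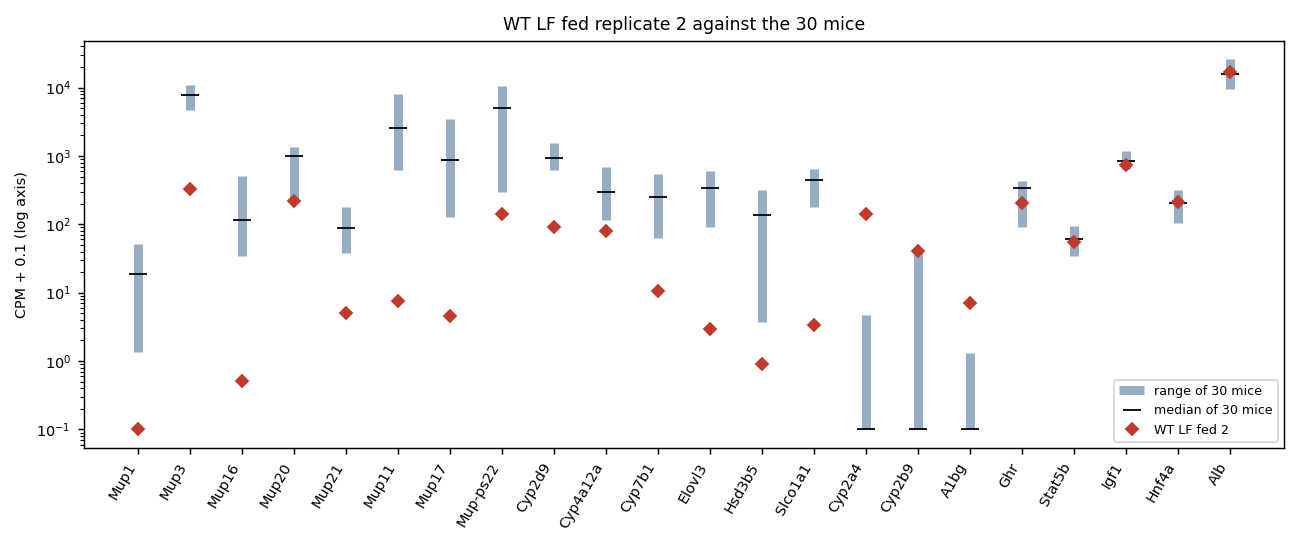
Level of Mup genes, male-predominant, female-predominant, growth hormone and hepatocyte genes in WT LF fed replicate 2 (red diamonds) and in the 30 mice used (bar: range, black line: median), as total-count CPM plus 0.1 on a log axis. The Mup genes and the 6 male-predominant genes drawn, all taken from the 10 that were below the range, lie below the bars, Cyp2a4 and A1bg above them, and Ghr, Stat5b, Igf1, Hnf4a and Alb within them.

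With this mouse kept, 31 mice in all, the WT LF fed group fell and the sums moved with it: the average log2 ratio of the 5 genes became 0.17 for fasting, then 0.27 for the diets and 0.38 for KO against WT. Still none of the 5 genes passed in any comparison. The mouse was labelled WT and had 401 CPM of Acadm, within the range of the other WT mice.

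Other Mup genes were called for diet, and they lie outside the 5 chosen. Mup9 was higher on HF by 3.96 on the log2 scale (SE 0.52, edgeR adjusted p = 7.94e-05). Its level was 7.15 to 202 CPM in the 15 HF mice and 0 to 7.09 CPM in the 15 LF mice, without overlap but also without a gap of note, and raw counts overlapped, from 23 on HF and up to 28 on LF. Mup17 was higher on HF by 1.52 (SE 0.33, edgeR adjusted p = 0.00967), with 578 to 3462 CPM on HF and 129 to 1604 CPM on LF. The call for Mup9 held within both lanes, each fitted with additive effects, with 5.04 in lane 7 and 3.45 in lane 8. That for Mup17 was lost there, with 1.79 (edgeR adjusted p = 0.276) and 1.46 (edgeR adjusted p = 0.181). It was lost also with all 32 mice (edgeR adjusted p = 0.137).

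In the last 300 bases, 25.5% of the 50-base stretches of Mup9 and 56.6% of those of Mup17 were found in no other Mup gene, and 187 of the 251 of Mup9 were also in Mup1, so that Mup9 counts in particular are uncertain. In deviations from group means r was 0.82 between Mup9 and Mup17. The highest Mup17 values of the HF fed groups stood apart from the rest, at 3462 CPM in KO replicate 4 and 2712 CPM in WT replicate 2. Beside these, 10 acinar pancreas markers summed to 2.14 to 56.1 CPM in LF mice and 9.65 to 18252 CPM in HF mice, without a call for any of the 6 tested. Of 12 acute-phase genes, 4 rose with HF and 0 fell, where 3.49% of all genes were called. Their sums were 6056 to 11429 CPM on LF and 6986 to 19016 CPM on HF. Their part in the Mup9 and Mup17 values was not tested.

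**Figure D5:**
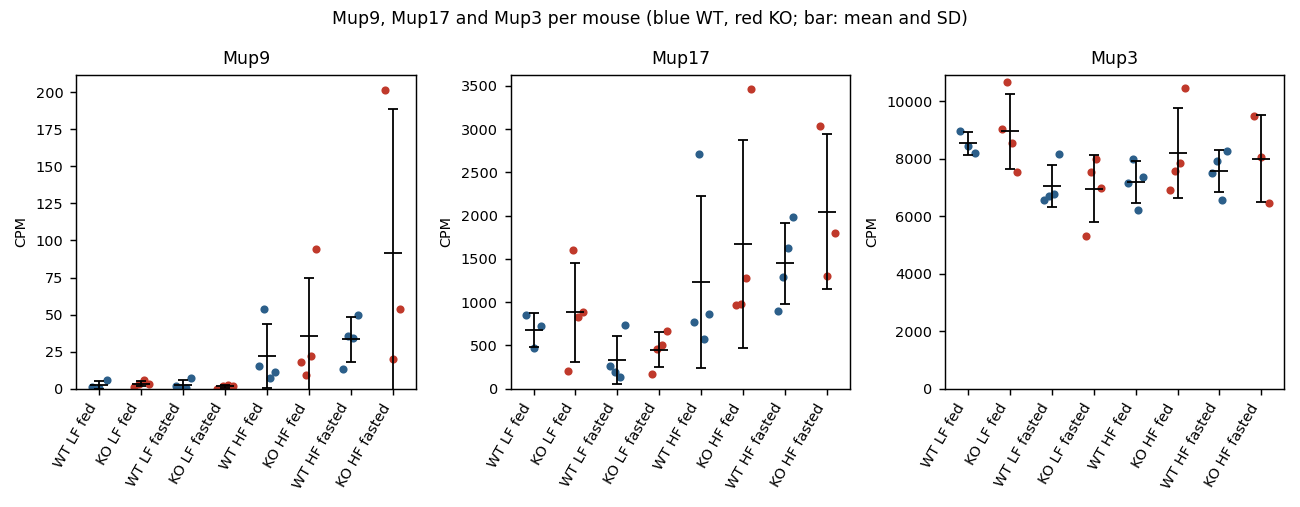
Mup9, Mup17 and, for comparison, Mup3 in each of the 30 mice, in CPM, by group, with WT in blue and KO in red and the group mean with its SD, cut at 0. All 15 HF mice lie above all 15 LF mice for Mup9, the ranges overlap for Mup17, and Mup3 shows no step between diets.

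Hormone signals that are known to act on Mup genes were described by lists of genes, beside which the 5 members can be set. For fasting, 6 of 15 tested genes of growth hormone signalling were called, 2 higher and 4 lower, where 18.9% of all genes were. Ghr, the growth hormone receptor, fell by 0.66 (SE 0.10, edgeR adjusted p = 3.9e-06), and Stat5b, the factor it activates, fell by 0.42 (SE 0.09, adjusted p = 4.44e-04). The feedback inhibitor Cish fell by 1.89 and the growth hormone-driven factor Onecut1 by 1.84. Igfbp1 and Igfbp2, which bind insulin-like growth factors, rose by 1.74 and 0.98. Igf1, the main hormone made under growth hormone, was at -0.03 (edgeR adjusted p = 0.842) and Socs2, another feedback inhibitor, at -0.83 (adjusted p = 0.176). The list had a median of -0.09, against -0.002 over all genes.

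The fall of Ghr was tested for a difference between diets. On LF it went from 387 to 391 CPM in fed WT mice to 151 to 275 CPM in fasted ones and from 321 to 432 CPM to 101 to 259.5 CPM in KO mice. On HF it stood at 309 to 373 CPM fed and 259 to 343 CPM fasted in WT, and at 357 to 428 CPM fed and 247 to 340.4 CPM fasted in KO. The fasting effect on HF exceeded that on LF by 0.73 (SE 0.20, edgeR adjusted p = 0.0395), a call lost in 18 of the 30 fits that left out 1 mouse each. For Mup3 the same difference was 0.34 and did not pass. On HF against LF, 4 genes of the list were called, where 3.49% of all genes were. Of the 4, Igfbp1 fell by 1.96 and Prlr, the prolactin receptor, rose by 0.77. For genotype 0 of the 15 were called by edgeR, as were 0 of the genes in each other list, where Acadm alone passed in the whole table.

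Among receptors and liver regulators, 8 of 16 were called for fasting, 5 higher and 3 lower, where 18.9% of all genes were. Nr3c1, the glucocorticoid receptor, fell by 0.42 and Thrb, a thyroid hormone receptor, by 0.38, whereas Hnf4a, a factor of hepatocyte identity, rose by 0.34. Zhx2, a regulator of some Mup and sex-biased genes, was at 0.18 (SE 0.35, edgeR adjusted p = 0.79). The largest changes were those of Nr1i3, a xenobiotic receptor, which rose by 1.52, and Foxa2, a forkhead factor, which fell by 0.91. For diet 2 rose and 1 fell, where 3.49% of all genes were called.

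Among male-predominant genes other than Mup, 2 of 16 rose and 6 fell with fasting, where 18.9% of all genes were called. Their median was -0.28. Hsd3b5, a steroid dehydrogenase, fell by 2.94 (SE 0.22, edgeR adjusted p = 6.16e-10), from 263 ± 34.6 CPM (SD, n = 3) to 7.86 ± 1.32 CPM (n = 4) in WT on LF. On HF it stood at 127 ± 51.0 CPM fed and 114 ± 57.3 CPM fasted in WT, and at 215 ± 58.4 CPM fed and 109 ± 79.4 CPM fasted in KO. Its fasting effect on HF was -0.15 in WT and -0.99 in KO (edgeR adjusted p = 0.952 and 0.528), and the average fasting effect differed between diets by 4.74 (SE 0.43, edgeR adjusted p = 4.27e-07). Slco1a1 fell by 0.61 with a difference between diets of 1.03, but with WT LF fed replicate 2 kept both calls were lost (edgeR adjusted p = 0.308 and 0.65). Selenbp2 fell by 1.44, and Cyp2d9, a steroid hydroxylase, rose by 0.45. The 5 Mup genes, known to be male-predominant as well, had fasting effects between -0.20 and 0.44 in the same mice, and their difference from the rest of the list was not tested.

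Of the 4 female-predominant genes with enough reads 2 rose and 0 fell with fasting, where 18.9% of all genes were called. Among 7 other liver lipocalins, Rbp4, the retinol carrier, rose by 0.53 with fasting and 1, Ptgds, was called lower at group means of at most 2.31 CPM, a call lost under 4 of the alternative settings and in 4 fits without a single mouse, while with diet Lcn2 rose by 1.61 and Apom, a lipoprotein component, fell by 0.50. Of 19 tested genes beside the Mup cluster on chromosome 4, 2 rose and 4 fell with fasting, where 18.9% of all genes were called. For diet 0 of the 19 were called by edgeR, where 3.49% of all genes were, so that this count says little. Hsdl2, one of these neighbours, rose by 1.40 with fasting. Fits within single lanes held fewer mice, and had additive effects of feeding, diet and genotype in place of the 8 groups. Many of the calls named here were lost there. For fasting these were Ghr, Nr3c1, Thrb, Hnf4a, Hsd3b5, Slco1a1, Cyp2d9 and Rbp4 in lane 7, Cish and Onecut1 in lane 8, and Stat5b, Igfbp1 and Selenbp2 in both, and for diet Prlr and Apom in lane 7, Igfbp1 in lane 8 and Lcn2 in both. The fasting calls of Slco1a1 and Thrb were also lost with 31 mice, and those of Slco1a1, Thrb, Hnf4a, Cyp2d9, Selenbp2 and Rbp4 with all 32. The diet call of Lcn2 was lost with 31 mice, and those of Lcn2 and Apom with all 32.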

How the data were processed

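Total RNA from freeze-clamped liver of 32 male mice was sequenced as 3′ end libraries (50-base single reads). Per the labels and the study's methods, the authors aligned reads with HISAT 0.1.5 to GRCm38, used SAMtools 1.2 and deposited raw counts per gene from HTSeq-count 0.6.1p1 in union mode. The Ensembl release is given differently in the methods and in the table, so it is not stated here. All columns of the table belonged to a sample. Rows without a symbol held 0.1248% of counts.

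Counts were analysed in 30 mice with edgeR 4.0.16 (R 4.3.3), using filterByExpr (minimum count 10), TMM scaling and a robust quasi-likelihood fit of the 8 groups, with 18 comparisons, Benjamini-Hochberg adjustment over 11566 genes and a threshold of 0.05. DESeq2 1.42.0 was an alternative, as were other filters and scalings, 31 and 32 mice, lanes and each mouse left out in turn. Single lanes were fitted with additive effects of feeding, diet and genotype, not with the 8 groups, so their values are not the same quantity. Levels are CPM, and log2 CPM used a prior count of 2. Sums have no test. The genes named were the members, the other Mup genes, Acadm, genes of the lists, up to 5 per list and direction by smallest p, and genes most like the members, of which 4 genes are not reported here. Members and lists were chosen with earlier results of these data known. Groups came from the sample titles and characteristics. Totals were 2031053 to 4292200 reads, which sets the counting error, and reads carry no molecular identifiers. No 2 mice of a group agreed within sampling noise over 42 pairs. The fit was tested on simulated data for fasting, with 11333 genes, and recovered 96% of 100 genes changed 2-fold and 100% of 100 changed 4-fold, with 4.85% of 206 calls false. Those counts were drawn with the spread that the fit itself had estimated, and only genes with a mean of at least 5 CPM were changed. Recovery for the members themselves was not tested. Sequences are from the GRCm38 annotation and, for promoters, RefSeq (GRCm38.p6), read with Biopython 1.88, and figures were drawn with matplotlib 3.10.9.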

Additional observations from a re-analysis of the deposited data

Results flagged for a closer look

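Dixon's test was run 54 times, on single Mup genes and on sums of Mup genes within the groups of 4 mice. In 6 of these tests a mouse was far from the other 3. Chance gives this in about 1 in 20 separate tests. These tests share the same mice, and the sums include the single genes, so the count of 6 cannot be set against that rate. Mup3 was 8154 CPM in WT LF fasted replicate 4, against 6556 to 6778 CPM in the others. In KO HF fed replicate 4, Mup16 was 518 CPM against 70.7 to 114 CPM, Mup9 93.9 CPM against 9.18 to 21.9 CPM, Mup17 3462 CPM against 962 to 1283 CPM, and all Mup genes summed 32953 CPM against 14917 to 16499 CPM. These 4 values come from 1 mouse and from genes of near-identical sequence. Mup17 was 2712 CPM in WT HF fed replicate 2, against 578 to 864 CPM.

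Among listed genes outside the family, the fasting effect differed between diets by edgeR's test of the difference itself. On HF minus LF it was 0.73 for Ghr, 4.74 for Hsd3b5, 1.03 for Slco1a1, -1.62 for Fmo2, 0.73 for Nr3c1 and -0.96 for Nr1i3 on the log2 scale. With WT LF fed replicate 2 kept, the calls for Ghr, Slco1a1 and Nr3c1 were lost (edgeR adjusted p = 0.219, 0.65 and 0.0671), and with all 32 mice those for Ghr, Slco1a1, Fmo2, Nr3c1 and Nr1i3. That for Ghr was also lost with lane as a term (edgeR adjusted p = 0.0664), and that for Fmo2 in 1 fit without a single mouse.

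In WT LF fed replicate 2, a mouse outside the comparisons, 4 female-predominant genes were above all 30 other mice by total-count CPM. Cyp2a4 stood at 142 CPM, A1bg at 6.95 CPM, Hao2 at 3.68 CPM and Abcd2 at 37.2 CPM. What set these values was not tested.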

How the results depend on the processing

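The count of members called was 0 under every setting run, with 1 exception. Scaling to total counts without TMM gave 1 called gene for the average effect of fasting and 1 for fasting within conditions, Mup3 both times. With a single mouse left out in turn the count stayed from 0 to 0. With WT LF fed replicate 2 kept (31 mice) the summed log2 ratio of the members moved to 0.17 for fasting, 0.27 for diet and 0.38 for genotype, and without single mice it ran from -0.15 to -0.08, -0.05 to 0.01 and 0.06 to 0.13. Small effects changed sign. With total counts the diet effect was 0.033 for Mup3 and 0.023 for Mup20, and with 31 mice 0.082 and 0.052. With all 32 mice the fasting by diet difference of Mup3 was -0.065 and the diet effect of Igf1 -0.049. Igf1 stood at 0.0046 for fasting with 31 mice and at -0.0042 for diet with lane as a term. Within lane 7, Mup21 was at 0.048 and Igf1 at 0.0021 for fasting, Mup3 at 0.029 for diet, Socs2 at -0.22 for genotype, and Zhx2 at -0.041 for fasting and -0.75 for diet. Within lane 8, Mup3 was at 0.0068 for diet and -0.020 for genotype, Igf1 at -0.093 for diet and Zhx2 at -0.061 for fasting. Leaving out single mice, the diet effect ran from -0.025 to 0.35 for Mup1, -0.053 to 0.015 for Mup3, -0.10 to 0.023 for Mup20, -0.017 to 0.0496 for Igf1, -0.44 to 0.042 for Socs2 and -0.079 to 0.32 for Zhx2, and the fasting effect from -0.28 to 0.065 for Mup16, -0.0598 to 0.0072 for Igf1 and -0.036 to 0.37 for Zhx2. The cause of these changes was not tested. Genes called over the whole table fell from 2187 to 1553 for fasting, from 404 to 81 for diet and from 285 to 22 for fasting by diet with all 32 mice. For fasting by diet they were 152 with 31 mice and 430 with DESeq2. They were 344 and 53 for fasting and diet within lane 7 and 1449 and 85 within lane 8. Those fits held fewer mice and had additive effects. The replicate numbers did not pair the mice (median correlation of deviations 0.006, from -0.20 to 0.17), and with the replicate block 0 members were called, beside 2124 genes for fasting and 360 for diet. Depth limits Mup1 most, with 4 to 158 reads per mouse.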
